A study of Homo sapiens with 4 samples.

Results

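The tricarboxylic acid (TCA) cycle enzymes examined here were 9 genes chosen by symbol, CS, IDH2, IDH3A, OGDH, SUCLG1, SUCLG2, FH, MDH2 and PC, out of the 60623 genes counted in each library. Each symbol had a single row in the count tables, and all 9 genes had enough counts to be tested. The cells were BICR10, a line established from a human head and neck tumour, transduced with a lentiviral control hairpin (shControl) or with a hairpin against YEATS2 (shYEATS2), which encodes a histone reader, and selected with puromycin. Each group had 2 libraries of poly(A) RNA, and neither the labels nor the study's methods say which of a pair of YEATS2 hairpins a library carried. Nothing in the labels says that the libraries of a group came from separate cultures. The paper describes its replicates in general as biological, but its RNA-seq methods do not say how these libraries were replicated. The p-values therefore measure the spread between these libraries, which may be technical. The question asked of the genes was whether their mRNA levels differed between YEATS2-silenced and control cells.

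The TCA cycle runs in the mitochondrial matrix, where acetyl-CoA is joined to oxaloacetate and oxidized step by step, yielding NADH and FADH2 for the respiratory chain. Its intermediates also leave the cycle for the synthesis of fatty acids, amino acids and nucleotides, and pyruvate carboxylase (PC) replaces the oxaloacetate that is lost in this way. Acyl-CoA species made in mitochondria and elsewhere are also the donors for acylation of histones, the kind of mark that YEATS2 reads.

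Between 11334133 and 47297970 counts fell on genes, and both shYEATS2 libraries (24072396 and 11334133) were shallower than both shControl libraries, so depth and knockdown cannot be told apart by design. Levels are given as CPM, counts scaled to the depth of the library, of which 1 unit stood for 45.4 counts in the deepest and 11.8 counts in the shallowest library. YEATS2 itself was at 66.1 and 66.7 CPM in shControl and at 29.2 and 29.1 CPM in shYEATS2 (log2 fold change −1.19 ± 0.08, SE). Markers of cell types went in part against the squamous epithelial origin usual for such a tumour. TP63 was at or below 0.255 CPM and KRT17 at or below 0.397 CPM in every library, whereas the fibroblast genes COL1A2, a collagen chain, and DCN, the proteoglycan decorin, averaged 2616 and 321 CPM in shControl and 822 and 83.7 CPM in shYEATS2. Of the 9 epithelial markers, 7 could be tested, with 5 lower and 1 higher. Of all 17058 tested genes 23.6% were called lower and 22.6% higher (edgeR adjusted p under 0.05). From shControl to shYEATS2, KRT8 fell from 266 to 119 CPM, KRT18 from 111 to 75.3 CPM and KRT5 from 15.7 to 1.19 CPM. CDH1 rose from 0.335 to 2.48 CPM, and SFN was level at 130 and 131 CPM. The summed level of the list was 522 to 528 CPM in shControl and 317 to 342 CPM in shYEATS2, most of it KRT8, SFN and KRT18. The 6 fibroblast markers summed to 6169 to 6244 CPM in shControl and to 1985 to 2107 CPM in shYEATS2, with 5 of 5 tested genes lower and THY1 near 0. The 4 endothelial markers summed to 35.5 to 36.4 CPM in shControl and to 18.6 to 19.6 CPM in shYEATS2, nearly all of it KDR, 1 of 2 tested genes lower and CDH5 at or near 0. The 4 leukocyte markers summed to 1.69 to 1.83 CPM and to 0.553 to 1.44 CPM, with the 1 tested gene lower and CD3E at 0. The samples were a cultured cell line, and the paper reports authenticating its cells by short tandem repeat profiling. The part of these marker differences in the results below was not tested. In such bulk samples fewer cells of a type and less RNA per cell cannot be told apart.

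In shYEATS2, 8 of the 9 TCA cycle enzymes were lower and 0 were higher (edgeR quasi-likelihood test, Benjamini-Hochberg adjusted p under 0.05). Of all 17058 tested genes 23.6% were called lower and 22.6% higher, 46.2% in either direction. The enzymes of the isocitrate and 2-oxoglutarate steps, IDH2, IDH3A and OGDH, together with PC, fell by between 0.51 and 0.65 on the log2 scale. CS, SUCLG2, FH and MDH2 fell by between 0.16 and 0.26, and SUCLG1 had a log2 fold change of −0.02 and was not called. Over the 9 enzymes the median was −0.26 on the log2 scale, beside −0.01 over all tested genes. For 9 of the 9 genes the groups did not overlap in CPM, with shYEATS2 below shControl. This pattern was held by 36.3% of the tested genes, while 35.3% had the opposite one. SUCLG1 was separated least, at 156 against 155 CPM for the nearest libraries. On the scale per exon length given below, the groups overlapped for CS, SUCLG2 and MDH2, and lay the other way for SUCLG1 and FH. No member was called higher by DESeq2 or limma-voom either, or at an unadjusted p under 0.05 from edgeR, while DESeq2 called 6 lower, against 17.3% of all tested genes. With libraries scaled by their totals alone, 4 of the 9 genes were called lower and the median was −0.12. This scaling moved the median of all tested genes by 0.13.

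**Figure D1:**
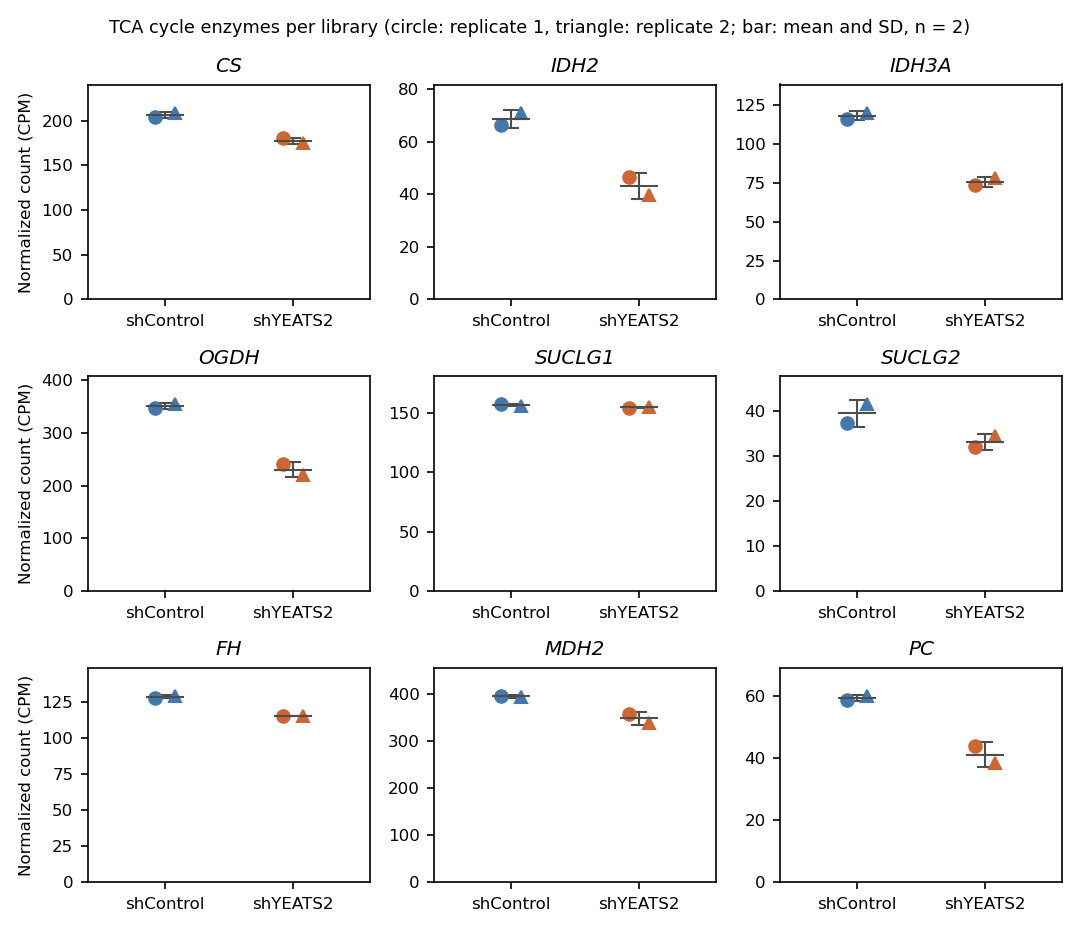
Normalized level in CPM (vertical axes, each starting at 0) of the 9 TCA cycle enzymes in the 2 shControl and 2 shYEATS2 libraries, with replicate 1 as circles, replicate 2 as triangles and bars for the mean and SD (n = 2). The libraries of the groups lie apart for IDH2, IDH3A, OGDH and PC, and almost coincide for SUCLG1, at 156 to 158 CPM in shControl and 155 CPM in shYEATS2.

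IDH3A (ENSG00000166411) encodes the catalytic alpha subunit of the NAD-dependent isocitrate dehydrogenase, an allosterically regulated step of the cycle. On GRCh38 it spans chr15:78131498-78171945 on the plus strand. It was measured at 116 and 120.1 CPM in shControl and 73.2 and 77.7 CPM in shYEATS2. The fit put shYEATS2 at 63.7% of shControl (log2 fold change −0.65 ± 0.07, SE, edgeR adjusted p = 5.2e-13). The log2 fold changes of IDH3A and IDH2 were the lowest of the 9 genes, and their confidence intervals overlapped almost wholly. In the annotation used, 38.2% of its exon bases are shared with ACSBG1 on the opposite strand, and the strand setting of the counting is not stated, so reads there could be lost or shared. ACSBG1 was counted at most 62 times in a library and was not called.

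IDH2 (ENSG00000182054), at chr15:90083045-90102477 on the minus strand, encodes the NADP-dependent isocitrate dehydrogenase of the mitochondrion. It was at 66.2 and 71.2 CPM in shControl and at 46.8 and 39.8 CPM in shYEATS2. The shYEATS2 libraries differed from each other by more than the shControl libraries did, and both stayed below them. Its log2 fold change was −0.65 ± 0.08 (SE, edgeR adjusted p = 7.2e-11), and 10.1% of the tested genes had a lower one. The value ranged from −0.80 without shYEATS2 replicate 1 to −0.56 without shYEATS2 replicate 2.

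OGDH (ENSG00000105953), at chr7:44606572-44709066 on the plus strand, encodes the E1 component of the 2-oxoglutarate dehydrogenase complex, which makes succinyl-CoA. Its level was 347 and 355 CPM in shControl and 240.4 and 219.8 CPM in shYEATS2, with a wide gap between the groups. The fit gave −0.61 ± 0.06 (log2, SE, edgeR adjusted p = 1.5e-13), or 65.7% of shControl. Its close relative OGDHL had at most 4 counts in any library.

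PC (ENSG00000173599), at chr11:66848417-66958386 on the minus strand, encodes the biotin-dependent enzyme that carboxylates pyruvate to oxaloacetate. It was the least abundant of the 9 genes per exon length in shControl, though not by CPM, where SUCLG2 was lower (39.4 CPM). PC was at 58.7 and 60.3 CPM in shControl and at 44.01 and 38.4 CPM in shYEATS2. Its log2 fold change was −0.51 ± 0.08 (SE, edgeR adjusted p = 5.1e-08), or 70.1% of shControl. On the opposite strand, LRFN4 shares 8.5% of the exon bases of PC, and its own log2 fold change was −0.03.

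The fitted changes of CS, MDH2 and FH were smaller. CS (ENSG00000062485), at chr12:56271699-56300391 on the minus strand, encodes citrate synthase, whose activity is often used as a measure of mitochondrial content. It was at 204 and 209 CPM in shControl and at 180.2 and 175 CPM in shYEATS2 (log2 fold change −0.22 ± 0.06, SE, edgeR adjusted p = 0.0021). Its exons share 3.44% of their bases with a readthrough gene on the same strand. MDH2 (ENSG00000146701), at chr7:76048051-76067508 on the plus strand, encodes the mitochondrial malate dehydrogenase, which regenerates oxaloacetate. It had the highest level of the 9 per exon length, and was at 397 and 393 CPM in shControl and 358 and 339 CPM in shYEATS2 (log2 fold change −0.18 ± 0.06, SE, edgeR adjusted p = 0.0084). FH (ENSG00000091483), at chr1:241497511-241519799 on the minus strand, encodes fumarase, which hydrates fumarate to malate. Its libraries agreed closely within each group, at 128 and 129.7 CPM in shControl and 116 and 116 CPM in shYEATS2, and its log2 fold change of −0.16 (standard error 0.06) had an adjusted p of 0.037, the nearest to the threshold of the 8 called genes. With library totals alone CS was at −0.08, MDH2 at −0.05 and FH at −0.02, and no call remained for the 3 genes. Without shControl replicate 2 the adjusted p was 0.07 for CS, 0.076 for MDH2 and 0.23 for FH by edgeR, and without shControl replicate 1 it was 0.11 for MDH2 and 0.18 for FH. With thinned counts it was 0.13 for MDH2 and 0.34 for FH, and with DESeq2 it was 0.085 for FH.

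Succinyl-CoA ligase, which turns succinyl-CoA into succinate while making GTP or ATP, is built from a shared alpha subunit and 1 of a pair of beta subunits. The alpha subunit gene SUCLG1 (ENSG00000163541), at chr2:84423528-84460045 on the minus strand, was at 158 and 156 CPM in shControl and at 155 and 155 CPM in shYEATS2. Its log2 fold change of −0.02 had a 95% confidence interval from −0.14 to 0.10 (adjusted p = 0.83, edgeR), so a change larger than that interval was not seen at this depth. The direction turned to 0.11 with library totals alone and to 0.05 with counts thinned to the depth of the shallowest library, neither of them called. The thinning was a random draw that was not repeated. The gene of the GTP-forming beta subunit, SUCLG2 (ENSG00000172340), at chr3:67360460-67654612 on the minus strand, was at 37.3 and 41.4 CPM in shControl and at 31.9 and 34.3 CPM in shYEATS2. Its log2 fold change was −0.26 ± 0.08 (SE, edgeR adjusted p = 0.0077), and the groups did not overlap in CPM. The call of SUCLG2 was lost without shControl replicate 2 (adjusted p = 0.24, edgeR), without shYEATS2 replicate 1 (0.065), with DESeq2 (0.062), with thinned counts (0.29) and with library totals alone (0.22).

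**Figure D2:**
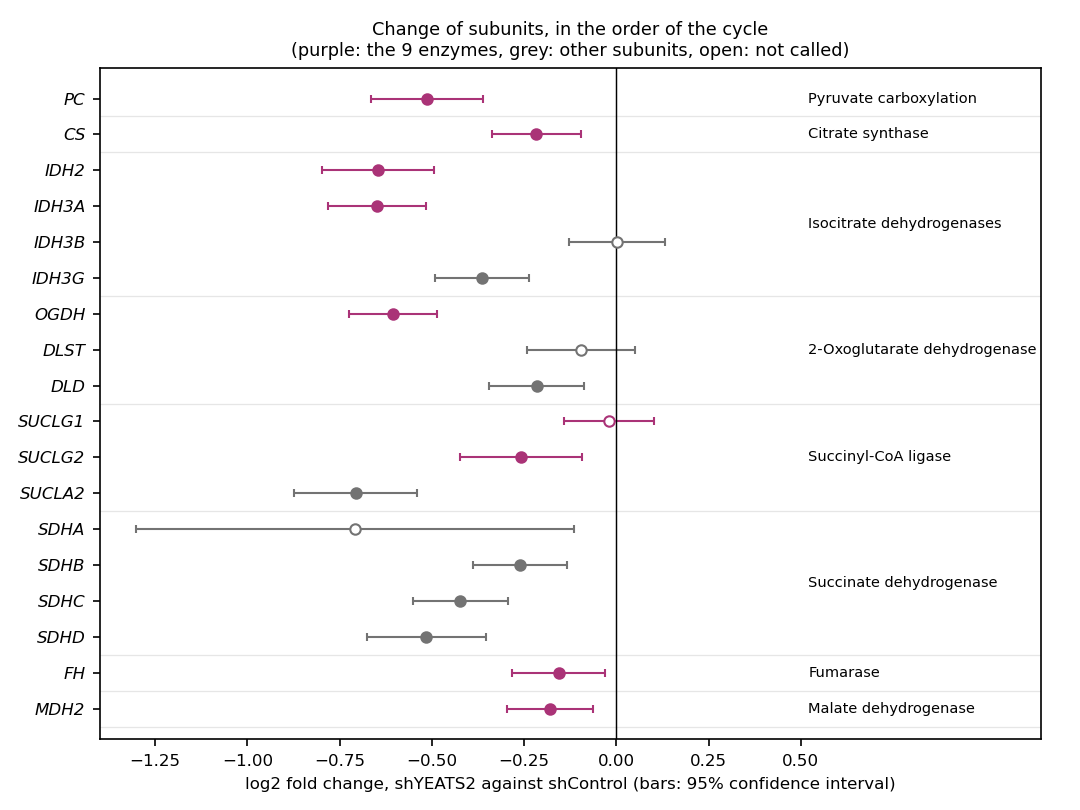
Log2 fold change of shYEATS2 against shControl (horizontal axis, bars for the 95% confidence interval) for the subunits in the order of the cycle, with the 9 enzymes in purple, the other subunits in grey and genes that were not called as open points. The intervals of IDH2, IDH3A and OGDH reach no higher than −0.49, and those of CS, SUCLG2, FH and MDH2 no lower than −0.42.

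The 95% confidence intervals of IDH2 (−0.80 to −0.50), IDH3A (−0.78 to −0.52) and OGDH (−0.73 to −0.49) lay wholly below those of CS, SUCLG2, FH and MDH2, whose lowest bound was −0.42. The interval of PC, from −0.67 to −0.36, overlapped the interval of SUCLG2. This grouping was made after the values were seen, and the difference between genes was not tested. Ratios between genes within a library do not depend on the scaling of the libraries. OGDH stood to CS, in counts per exon base, at 2.09 and 2.08 in shControl and at 1.64 and 1.54 in shYEATS2. IDH3A to CS went from 0.533 and 0.539 to 0.381 and 0.416, IDH2 to CS from 0.745 and 0.782 to 0.597 and 0.522, and PC to CS from 0.252 and 0.253 to 0.214 and 0.192. SUCLG1 to CS went the other way, from 1.19 and 1.149 to 1.32 and 1.36. The ranges of the groups overlapped for SUCLG2 to CS and for MDH2 to CS, and FH to CS was slightly higher in shYEATS2, at 0.440 and 0.453 against 0.430 and 0.425. The ratios carry no test, since an exact two-sided permutation test of 2 libraries against 2 has 0.333 as its smallest p.

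Enzymes with a cytosolic or alternative partner shifted against that partner to different extents. The ratio of IDH2 to IDH1, the NADP-dependent enzyme of the cytosol, was 1.65 and 1.59 in counts per exon base in shControl and 0.720 and 0.571 in shYEATS2, as IDH1 rose by a log2 fold change of 0.66 (standard error 0.07). On this scale the order of both genes was opposite in the groups, which depends on the exon lengths used. In counts alone IDH2 was below IDH1 in each library, with ratios of 0.977 and 0.942 in shControl and 0.427 and 0.338 in shYEATS2. IDH2 to IDH3A did not separate the groups, at 1.40 and 1.45 in shControl and 1.57 and 1.25 in shYEATS2. Counts alone gave 0.571 and 0.593 in shControl and 0.639 and 0.512 in shYEATS2, again without separation. SUCLG2 to SUCLA2, the gene of the ATP-forming beta subunit, was 2.16 and 2.53 in shControl and 3.31 and 3.04 in shYEATS2. SUCLG1 to SUCLG2 was 3.14 and 2.80 in shControl and 3.60 and 3.36 in shYEATS2. MDH2 to MDH1, the cytosolic malate dehydrogenase, differed little, at 2.27 and 2.21 against 2.39 and 2.34.

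**Figure D3:**
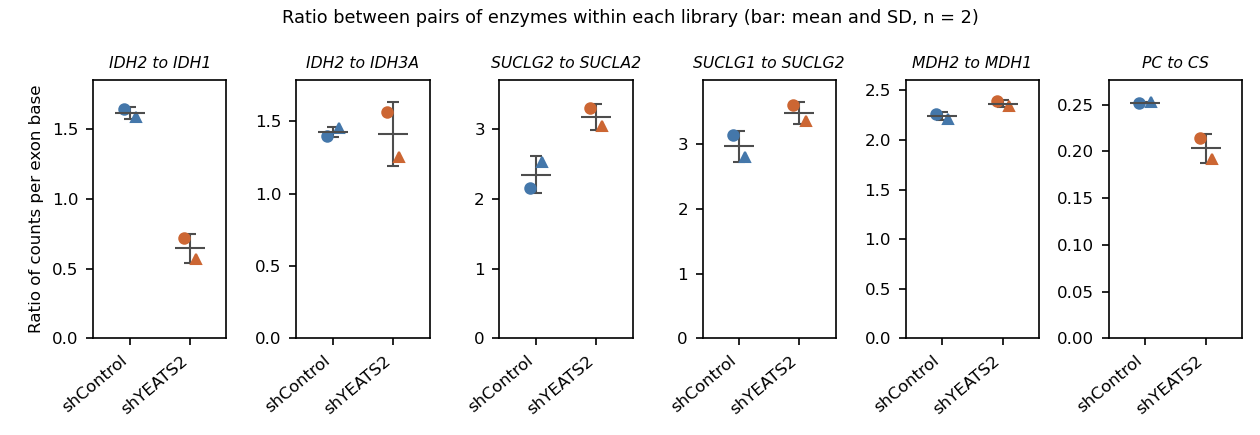
Ratio of counts per exon base between pairs of enzymes (vertical axes, each starting at 0) in each shControl (blue) and shYEATS2 (orange) library, with replicate 1 as circles, replicate 2 as triangles and bars for the mean and SD (n = 2). The largest shift is that of IDH2 to IDH1, from 1.62 ± 0.0425 to 0.645 ± 0.106, while IDH2 to IDH3A overlaps between the groups.

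Levels of different genes were compared as TPM, the depth-scaled counts divided by the exon length of each gene. This length joins the exons of all annotated transcripts and can exceed that of the mRNA present. It was 9350 bases for FH, 6823 for IDH3A and 2787 for IDH2, and the order below depends on it. By CPM in shControl, FH (129) lay above IDH3A (118) and IDH2 (68.7). In shControl the order was MDH2 (326 ± 1.56 TPM, SD, n = 2), OGDH (202 ± 3.54), SUCLG1 (113 ± 0.485), CS (96.9 ± 1.88), IDH2 (74.0 ± 3.94), IDH3A (51.9 ± 1.39), FH (41.4 ± 0.431), SUCLG2 (38.3 ± 2.95) and PC (24.4 ± 0.521). FH and SUCLG2 were the nearest neighbours, with SUCLG2 libraries at 36.2 and 40.3 TPM and FH libraries at 41.1 and 41.7 TPM. In shYEATS2, IDH3A (38.3 ± 0.396 TPM) had moved below FH (43.0 ± 1.36 TPM) and lay next to SUCLG2 (37.1 ± 0.743 TPM), and OGDH (153 ± 14.6 TPM) lay nearer to SUCLG1 (129 ± 3.70 TPM). TPM values are not scaled by TMM, the scaling behind the CPM values, and on this scale the groups overlapped for CS, SUCLG2 and MDH2, and both shYEATS2 libraries were above both shControl libraries for SUCLG1 (126 against 114 TPM at the nearest) and for FH (42.0 against 41.7 TPM).

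Promoter sequences of RefSeq (GRCh38.p14) were available for 8 of the 9 genes, all but OGDH. For 6 of them the window ended at the start of the canonical transcript in GENCODE, and these were searched on both strands for GGGCGG, the core of the GC box bound by SP1 and related factors. The windows of IDH2 and PC ended 1847 and 52349 bases inside that start and were left out. GGGCGG was found in 4 of the 6 windows, those of CS, IDH3A, SUCLG2 and FH, and in 42.6% of 35116 RefSeq promoters of the same length. These promoters were not limited to canonical starts, so they are not a matched background for the 6 windows. Given here are the 250 bases before the start of IDH3A (chr15:78149112-78149361, plus strand), one of the genes that fell most, of CS (chr12:56300331-56300580, minus strand) with the most matches, of MDH2 (chr7:76047856-76048105, plus strand) and of SUCLG1 (chr2:84459281-84459530, minus strand), the gene that was not called, 5′ to 3′ on the strand of the gene with GGGCGG or its complement CCGCCC in capitals.
IDH3A: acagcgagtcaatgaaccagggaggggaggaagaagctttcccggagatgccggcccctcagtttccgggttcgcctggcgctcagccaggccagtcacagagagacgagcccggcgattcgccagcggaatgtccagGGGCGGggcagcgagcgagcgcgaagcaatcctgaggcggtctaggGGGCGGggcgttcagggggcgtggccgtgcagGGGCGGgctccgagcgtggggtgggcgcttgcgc
CS: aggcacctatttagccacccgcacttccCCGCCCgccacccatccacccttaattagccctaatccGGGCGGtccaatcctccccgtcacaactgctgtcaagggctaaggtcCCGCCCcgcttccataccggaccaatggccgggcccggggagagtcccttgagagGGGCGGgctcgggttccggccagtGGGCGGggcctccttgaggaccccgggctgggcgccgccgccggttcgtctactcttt
MDH2: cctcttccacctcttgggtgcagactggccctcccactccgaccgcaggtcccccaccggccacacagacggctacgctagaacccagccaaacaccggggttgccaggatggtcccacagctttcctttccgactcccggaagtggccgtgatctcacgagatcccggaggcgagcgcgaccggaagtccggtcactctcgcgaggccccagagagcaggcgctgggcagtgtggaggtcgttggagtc
SUCLG1: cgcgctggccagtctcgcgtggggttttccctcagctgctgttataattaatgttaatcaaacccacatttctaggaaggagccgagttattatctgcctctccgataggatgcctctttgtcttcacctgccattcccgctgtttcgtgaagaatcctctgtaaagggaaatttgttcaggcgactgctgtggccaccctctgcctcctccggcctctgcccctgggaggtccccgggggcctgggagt
The IDH3A window holds 3 matches, the CS window 5, and those of MDH2 and SUCLG1 hold 0. The palindromic motif of NRF1, a regulator of nuclear genes for mitochondrial proteins, was found in the IDH3A window, 10 bases before the start, and in 5.07% of all promoters. CCGGAAG, the core bound by GABP and other ETS factors, was found at 2 places in the MDH2 window and in 8.52% of all promoters, and CCAAT occurred in the CS and FH windows and in 32% of all promoters. CACGTG, the E box, was in none of the 6 windows and in 6.34% of all promoters. A match of letters is a description and does not show that a factor was bound.

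The other subunits of the cycle, from a list of 9 genes, were lower for 6 genes and higher for 0 by edgeR. Of all tested genes, 23.6% were lower and 22.6% higher. The median log2 fold change of the list was −0.36. SUCLA2 fell from 48.3 to 30.0 CPM (log2 fold change −0.71, standard error 0.08) and SDHD, a membrane anchor of succinate dehydrogenase, from 55.6 to 39.5 CPM (−0.52, standard error 0.08), the lowest values among the called genes of the list. Within the NAD-dependent isocitrate dehydrogenase, IDH3G fell by 0.36 on the log2 scale, whereas IDH3B averaged 99.2 ± 1.14 CPM (SD, n = 2) in shControl against 99.1 ± 4.03 CPM with the knockdown. Within the 2-oxoglutarate dehydrogenase complex, the lipoamide dehydrogenase DLD fell by 0.22 and the succinyltransferase DLST had a log2 fold change of −0.10 that was not called. DLD lost its call with library totals alone (−0.08), with thinned counts (adjusted p = 0.11, edgeR) and without shControl replicate 2 (0.19), whereas DLST was called with thinned counts (−0.30) and without shYEATS2 replicate 1 (−0.20). Of the other succinate dehydrogenase subunits, SDHB and SDHC fell by 0.26 and 0.42, and SDHB was not called with library totals alone (−0.13). SDHA, which has pseudogenes of near-identical sequence and whose counts are uncertain, was at 14.2 and 8.92 CPM in shControl and at 6.67 and 7.89 CPM in shYEATS2 and was not called (adjusted p = 0.055, edgeR). Its log2 fold change was −0.71, and −0.32 without shControl replicate 1. SDHA was called lower without shControl replicate 2 (−0.99), with the replicate block (−0.72), without a filter, with DESeq2 and with thinned counts. Of these subunits and the 9 enzymes, 14 of 18 were lower (77.8%, beside 23.6% of all tested genes) and 0 higher (beside 22.6%). By DESeq2, by limma-voom or at an unadjusted edgeR p under 0.05, 0 were higher.

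Genes that feed the cycle or draw on it, from 7 further lists, were called in both directions, with 17 of 49 tested genes lower (34.7%, beside 23.6% of all tested genes) and 12 higher (24.5%, beside 22.6%, so that the share called higher was near that of all genes). With library totals alone the balance turned. The other pathway genes, the remaining cycle subunits included, went from 23 lower and 12 higher to 13 lower and 19 higher. All tested genes shifted the same way, from 4019 lower and 3857 higher to 2567 lower and 5441 higher. Among the 12 tested genes of pyruvate entry, 6 were lower and 3 higher, with a median log2 fold change of −0.20. The kinases PDK3 and PDK1, which inactivate pyruvate dehydrogenase, fell with log2 fold changes of −0.77 and −0.76, and the phosphatases PDP1 and PDP2, which reactivate it, rose with 1.30 and 0.50. PDP1 went from 28.5 and 31.4 CPM in shControl to 72.2 and 75.9 CPM in shYEATS2. Of the 9 tested enzymes that use cycle intermediates, 3 were lower and 4 higher (median 0.10). PCK2, the mitochondrial phosphoenolpyruvate carboxykinase that uses oxaloacetate, rose from 10.1 and 10.6 CPM to 28.3 and 28.2 CPM, and MDH1 and the ATP citrate lyase gene ACLY fell with log2 fold changes of −0.26 and −0.25. These last falls were not called with library totals alone, at −0.13 for MDH1 and −0.12 for ACLY.

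Of the 4 tested genes of glutamine supply, 2 were higher and 2 were not called (median 0.22). Among all tested genes the edgeR shares were 23.6% lower and 22.6% higher. GPT2, the mitochondrial alanine aminotransferase that yields 2-oxoglutarate, rose from 26.0 and 25.5 CPM to 52.7 and 48.7 CPM, and the glutamine transporter SLC1A5 rose with a log2 fold change of 0.36. Among the 6 carriers of the inner membrane, 3 were lower and 0 higher by edgeR, DESeq2 or limma-voom or at an unadjusted edgeR p under 0.05 (median −0.27), led by the aspartate-glutamate carrier SLC25A12 (−0.72) and the 2-oxoglutarate carrier SLC25A11 (−0.52, not called with thinned counts, where it was at −0.29). In the list of 4 genes of propionate breakdown (median −0.05) 1 was lower, a share near that of all tested genes. This was PCCB, a subunit of propionyl-CoA carboxylase, which fell by 0.19. Its call was lost with library totals alone (−0.06), with DESeq2 (adjusted p = 0.12), in the fit without shControl replicate 1 (0.13) and in the fit without shControl replicate 2 (0.25).

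Among 6 tested genes for cofactors and relatives of OGDH, 2 were lower and 1 higher (median 0.01). Of all tested genes, 23.6% were called lower and 22.6% higher by edgeR. MRPS36, described as a subunit that holds the 2-oxoglutarate dehydrogenase complex together, fell by 0.75 on the log2 scale, from 14.8 and 15.8 CPM to 9.24 and 8.91 CPM. HLCS, which attaches biotin to PC and the other carboxylases, fell by 0.21 with calls lost without either shControl library (adjusted p = 0.094 without replicate 1 and 0.16 without replicate 2, edgeR), with DESeq2 (0.065) and with library totals alone (−0.07), and DHTKD1, a relative of OGDH in lysine breakdown, rose by a log2 fold change of 0.46. Of the 8 regulators of mitochondrial gene expression, 2 were lower and 2 higher (median −0.12), shares near those of all tested genes. The coactivator PPARGC1B fell by 0.55 and TFAM, which maintains mitochondrial DNA, by 0.23, while PPRC1 and NRF1 rose with log2 fold changes of 0.29 and 0.37. PPARGC1A was counted at most 20 times in a library. TFAM was not called without shControl replicate 1 (adjusted p = 0.051) or shControl replicate 2 (0.16), and NRF1 was not called without shControl replicate 2 (0.076) or shYEATS2 replicate 1 (0.10), all by edgeR. With library totals alone TFAM was at −0.09, and with thinned counts the adjusted p was 0.058 for TFAM, 0.28 for PPRC1 and 0.51 for NRF1.

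**Figure D4:**
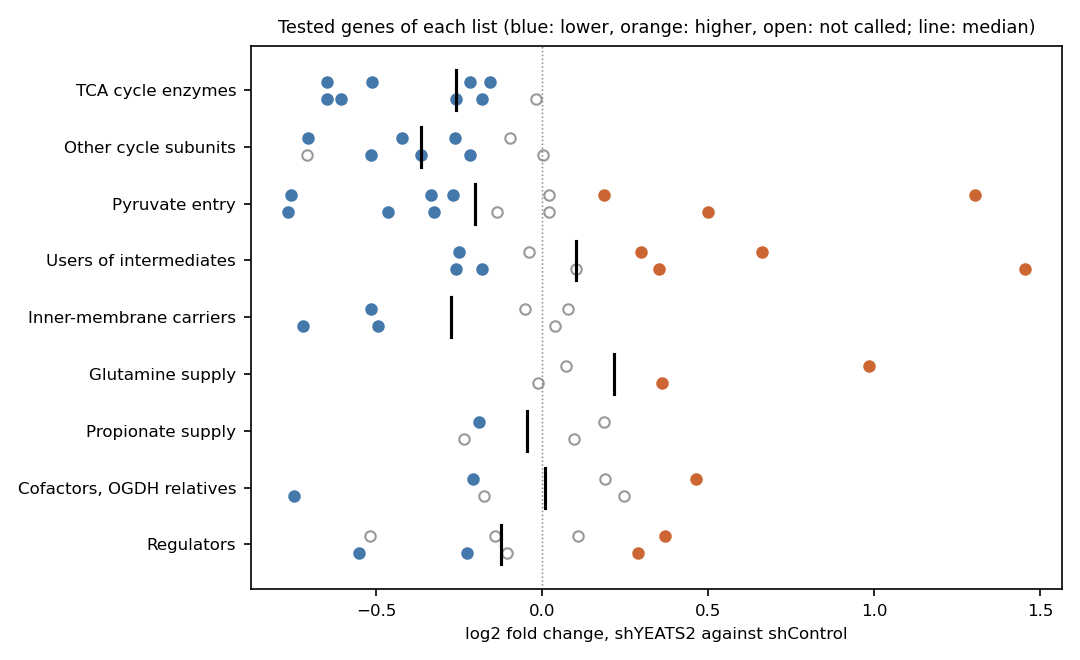
Log2 fold change of shYEATS2 against shControl (horizontal axis) for each tested gene of the 9 lists, with called lower genes in blue, called higher genes in orange, genes not called as open points and the median of each list as a line. The medians of the TCA cycle enzymes (−0.26) and of the other cycle subunits (−0.36) lie below 0, and the list of users of intermediates holds genes called in both directions, with PCK2 at 1.45.

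Finally, the genes with the pattern most like the average of the 9 enzymes were sought among 9356 other genes averaging 10 CPM or more, by the distance between log2 CPM values centred on the mean of the 4 libraries. The average profile of the enzymes was 0.16 and 0.20 in shControl and −0.16 and −0.21 in shYEATS2. The 5 nearest genes were FBN1, SEC24C, SNTB2, MFN2 and SRPRB, at distances of 0.017, 0.021, 0.022, 0.022 and 0.024. Their log2 fold changes were between −0.37 and −0.35. MFN2 encodes a fusion protein of the mitochondrial outer membrane, and FBN1 encodes the matrix protein fibrillin. Over only 4 libraries, the distance mainly describes the size of the difference between the groups.

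**Figure D5:**
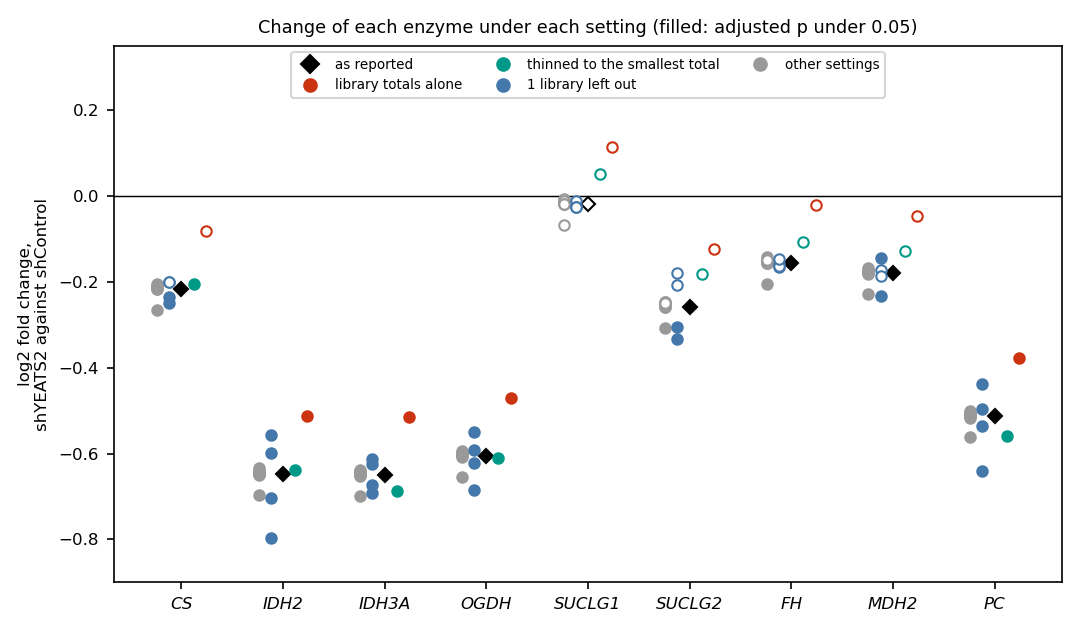
Log2 fold change of shYEATS2 against shControl (vertical axis) of each enzyme as reported (diamonds) and under 13 other settings of the analysis (circles), filled where the adjusted p was under 0.05. IDH2, IDH3A, OGDH and PC stay at or below −0.38 and called under each setting, and SUCLG1 is never called, with its direction turned by library totals alone and by thinning.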

How the data were processed

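RNA-seq was analysed from 4 BICR10 libraries, 2 shControl and 2 shYEATS2. The authors used a stranded mRNA kit, read both ends of each fragment over 150 bp, mapped with STAR to GRCh38, and tallied reads by Ensembl gene in HTSeq. The deposited counts are whole numbers without normalization. Which annotation was used, and whether strand was, is not given in the sources used here. Reads tallied outside genes (7.64% to 8.57%) and ambiguous reads (4.31% to 4.61%) were left out.

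Groups were taken from the sample titles. Genes were kept with filterByExpr (17058), TMM-scaled and compared by the quasi-likelihood test of edgeR 4.0.16 (robust glmQLFit, R 4.3.3), with Benjamini-Hochberg adjustment over all of them and a threshold of 0.05. Standard errors were taken as the log2 fold change divided by the root of F. CPM values are TMM-normalized, log2 CPM has a prior count of 2, and each ± on CPM, TPM or a ratio is the SD of 2 libraries, and on a log2 fold change the standard error. Positions and exon lengths came from GENCODE release 44, which held 60295 of the 60623 identifiers. The libraries of a group differed by more than counting noise (chi-square per degree of freedom 5.95 in shControl and 5.39 in shYEATS2). The scripts were tested on simulated data.

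The members and lists were chosen with earlier results of these data known. Some genes of the lists are not reported here and were left out of the counts and plots of the lists. Of each list, the text names by rule up to 2 genes per direction that were called, had a mean of at least 10 CPM and did not overlap between the groups. Other genes (the remaining cycle subunits, TP63, KRT5, KRT17, CDH1, SFN, THY1, CDH5, CD3E, OGDHL and PPARGC1A, and ACSBG1 and LRFN4 for their overlap) were named after their values were seen. The alternatives were 3 other scalings, 2 other filters, DESeq2 1.42.0, limma-voom (limma 3.58.1), a replicate block and thinning to 11334133 counts. The thinning was a random draw that was not repeated. Each library was also left out in turn, where the lone library is assumed to vary like the other group.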

Additional observations from a re-analysis of the deposited data

How the results depend on the processing

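IDH2, IDH3A, OGDH and PC were called lower under each of the 13 alternatives, with log2 fold changes from −0.80 to −0.38. Over the 9 enzymes, 99 values kept their direction and their side of the threshold, 16 lost the call and 2 reversed, both of SUCLG1 (0.11 with library totals alone, 0.051 with thinned counts). For the other genes named by rule, the genes most alike, the other cycle subunits, ACSBG1 and LRFN4, 496 values kept both, 23 lost the call, 7 gained it (SDHA and DLST) and 7 reversed, all of genes that were not called. These were DLST (0.039) and LRFN4 (0.11) with library totals alone, ACSBG1 without shYEATS2 replicate 2 (−0.042, with 0.47 as the highest value on leaving out 1 library), and IDH3B without a filter (−0.046), with thinned counts (−0.057), without shControl replicate 1 (−0.010) and without shYEATS2 replicate 1 (−0.054, with 0.036 as the highest value on leaving out 1 library). The settings for the other cycle subunits outside the rule, ACSBG1 and LRFN4 were run after their values were seen.

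With library totals alone, 4 enzymes were called lower with a median of −0.12, the other pathway genes were 13 lower and 19 higher (23 and 12 as reported), and all tested genes 2567 lower and 5441 higher (4019 and 3857 as reported), so that lower genes made up 32.1% of the calls against 51.0%. With thinned counts, 5 enzymes were called lower with a median of −0.20, and all tested genes were 2446 lower and 2433 higher. Thinning left 14381 genes to test and fewer counts in 3 libraries. As the random draw was not repeated, effects of depth and of the draw cannot be told apart. Without a filter the median of the enzymes was −0.31. Leaving out 1 library gave 4 (without shControl replicate 2) to 8 enzymes called lower and medians from −0.33 to −0.20. DESeq2 called 6. The cause of these changes was not tested.

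No pairing by replicate number was seen, as the difference of replicate 1 from 2 in shControl had a correlation of −0.02 with that in shYEATS2. With a replicate block, 8 enzymes were called lower with a median of −0.25, the other pathway genes were 25 lower and 12 higher, all tested genes 4142 lower and 3870 higher, and YEATS2 had a log2 fold change of −1.19. The block changed no call of the 9 enzymes, and SDHA was called with it.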
